A study of Mus musculus with 15 samples.

Results

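The expression of 9 genes of blood clotting and clot lysis that vascular cells make was examined in the aorta of male mice given aldosterone together with a high salt load (Aldo-salt). The genes were taken by symbol from the 24982 gene symbols counted in each library, and all 9 passed the filter on low counts. They were *Thbd*, *Procr*, *F3*, *Tfpi*, *Tfpi2*, *Plat*, *Plau*, *Serpine2* and *Vwf*. *Thbd* was selected on its difference between orchiectomized mice with and without dihydrotestosterone (DHT), and the others for their role beside it, so for *Thbd* that comparison, and those with control mice that share its libraries, are descriptions and are given without a test.

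The RNA-Seq covered 15 whole aortas, 1 library each, from wild-type C57BL/6 males aged 10 months, with 5 mice in each group. Control mice had a sham operation, orchiectomized mice had the testes removed, and the last group was orchiectomized and given a pellet of DHT, a potent androgen that cannot be converted to estrogen. All 15 mice received aldosterone by minipump (200 µg/kg daily) and drank 0.9% NaCl with 0.2% KCl over 7 days, starting 2 weeks after surgery, so no group without Aldo-salt was compared. The pellet put back a single androgen at a set dose rather than the hormones of the testis.

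The endothelium keeps blood fluid by displaying anticoagulant proteins. Thrombomodulin binds thrombin and turns it from a clotting enzyme into an activator of protein C, a reaction that the endothelial protein C receptor accelerates, and activated protein C then cuts clotting cofactors. Tissue factor on cells beneath the endothelium starts coagulation, tissue factor pathway inhibitor blocks that step, and the plasminogen activators start the lysis of fibrin.

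Each library held between 8268957 and 13816864 gene reads. Library 2 of the orchiectomized mice stood apart, because 14 markers of lung epithelium took 1.03% of its gene reads, against 0.0021% to 0.00905% in the other 14 libraries. It held 22367 reads of *Sftpc*, a surfactant gene of the lung, while no other library had more than 57. Lung is rich in endothelium, so results that involve the orchiectomized group are also given without this library where a call or a direction changed or a value moved by over 1.5 times. In whole aorta, fewer cells of a type and less RNA per cell cannot be told apart. Levels are given as CPM (reads of a gene relative to the library size, scaled by TMM) and differences as log2 fold changes with their standard error (SE) from edgeR. A gene was called, or passed, at an unadjusted *P* value under 0.01, the threshold of the study. The edgeR *P* values printed are adjusted over all 14121 genes tested, or over 14188 in the fit without orchiectomized library 2. Exact permutation *P* values are not adjusted.

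Per kilobase of exon, *Serpine2* had the highest level of the 9 genes in control mice, at 102 ± 22.4 CPM per kb (SD, n = 5). Exon length was that of all annotated exons of a gene joined, 3723 bases for *Thbd* and 16064 for *Vwf*. The order of the genes therefore depends on the annotation. *Thbd* (51.3 ± 3.12) and *F3* (47.5 ± 14.4) followed and did not differ beyond their spread. *Plat* (19.8 ± 3.46), *Plau* (15.2 ± 4.98), *Vwf* (13.6 ± 4.09) and *Procr* (10.3 ± 1.79) formed a middle range in which each neighbor lay within the spread of the next. *Tfpi* was lower, at 3.45 ± 0.49 CPM per kb, and *Tfpi2* was near the limit of detection, with 3 to 23 counts in each control library.

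*Thbd*, which encodes thrombomodulin, lies on chromosome 2 (chr2:148404466-148408188, minus strand, GRCm38) and has a single exon of 3723 bases. Its level in the 5 control libraries was 187, 177, 187, 209 and 194 CPM, in the orchiectomized libraries 185, 278, 249, 237 and 193 CPM, and in the libraries of DHT-treated mice 108, 140, 118, 117 and 94.6 CPM. Every DHT-treated mouse was below every mouse of both other groups, while control and orchiectomized mice overlapped. The means were 191 ± 11.6 CPM in control, 228 ± 39.1 CPM in orchiectomized and 115 ± 16.5 CPM in DHT-treated mice (SD, n = 5). These levels rest on 915 to 3441 reads per library, so counting error is small beside the spread between mice.

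In the comparison that chose it, *Thbd* was lower with DHT than in untreated orchiectomized mice by a log2 fold change of -0.99 (SE 0.13, 95% confidence interval -1.26 to -0.72). Without the library that carried lung transcripts the orchiectomized mean was 216 ± 31.8 CPM (SD, n = 4) and the log2 fold change was -0.89. Compared with control mice, a comparison that did not choose the gene but uses the same DHT-treated mice, *Thbd* had a log2 fold change of -0.73 (SE 0.13), which ran from -0.81 to -0.66 over the 15 fits that left out 1 library. Those values describe libraries on which the gene was picked and are no independent support. For orchiectomized against control mice, whose ranges overlapped, the log2 fold change was 0.26 (SE 0.12, 95% confidence interval -0.01 to 0.53). Without the library that carried lung transcripts it was 0.17 (SE 0.13).

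**Figure D1:**
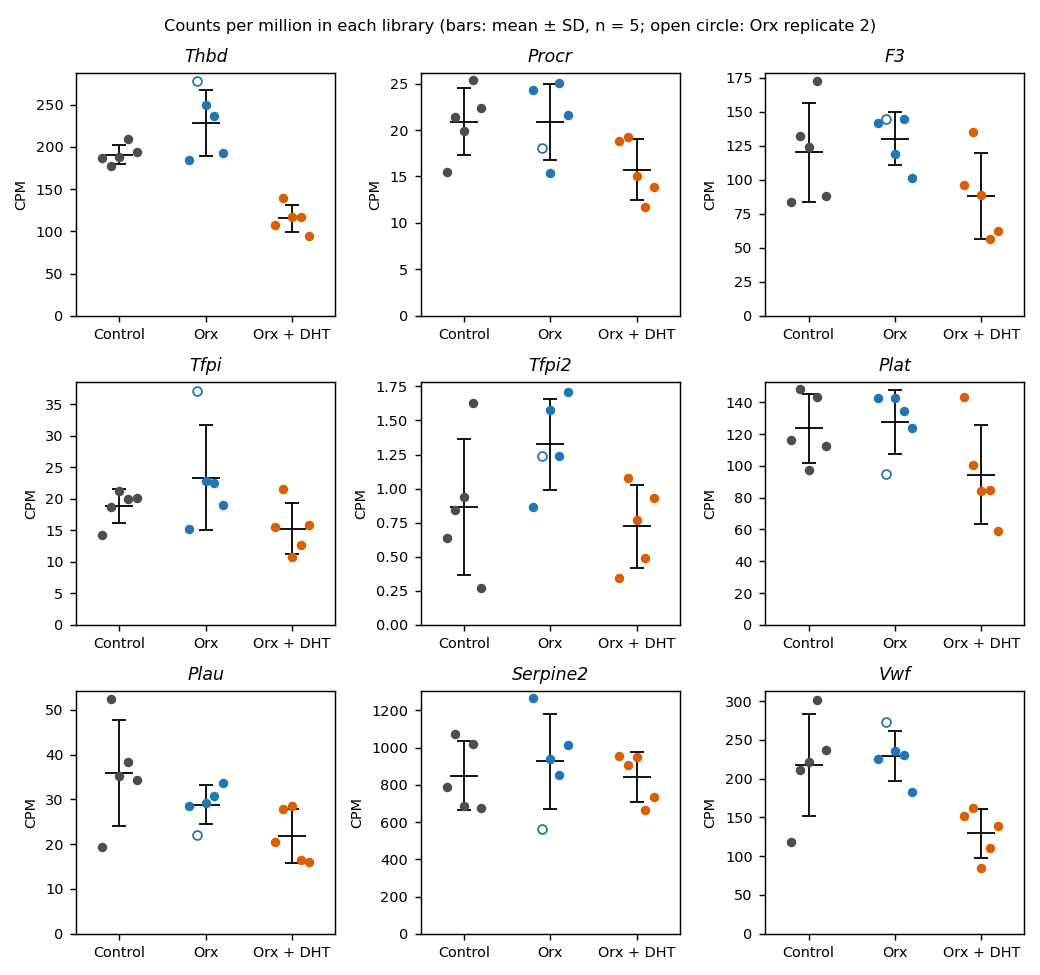
Level of each of the 9 genes in CPM (linear axis from 0), 1 point per library, in control, orchiectomized (Orx) and DHT-treated orchiectomized (Orx + DHT) mice; horizontal bars are means and whiskers SD (n = 5), and the open circle is the orchiectomized library that carried lung transcripts. The *Thbd* points of DHT-treated mice lie between 94.6 and 140 CPM, below all points of both other groups, which start at 177 CPM.

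*Procr* encodes the endothelial protein C receptor, the partner of thrombomodulin in protein C activation, and is also on chromosome 2 (chr2:155751117-155755471, plus strand). Its level was 15.5, 21.4, 19.9, 25.4 and 22.4 CPM in control mice, 24.3, 18.1, 15.4, 25.0 and 21.6 CPM in orchiectomized mice and 18.8, 19.3, 15, 11.7 and 13.9 CPM in DHT-treated mice. The 3 groups overlapped. *Procr* did not pass the threshold against orchiectomized mice (log2 fold change -0.40, SE 0.18, adjusted *P* = 0.197) or against control mice (-0.41, SE 0.18, adjusted *P* = 0.384). For orchiectomized against control mice the log2 fold change was -0.0032 with a 95% confidence interval of -0.37 to 0.37, and 0.03 without the library that carried lung transcripts.

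*F3*, on chromosome 3 (chr3:121723537-121735048, plus strand), encodes tissue factor. It was at 83.5, 132, 124, 173 and 88.1 CPM in control mice, at 142, 145, 119, 145 and 101 CPM in orchiectomized mice, and at 96.2, 135, 89.1, 56.5 and 62.6 CPM in DHT-treated mice. DHT-treated mouse 2 lay within the range of the orchiectomized mice and the other 4 were below all of them. The log2 fold change with DHT was -0.56 (SE 0.24, adjusted *P* = 0.185) against orchiectomized mice and -0.45 (SE 0.24, adjusted *P* = 0.479) against control mice, neither of which passed. Without DHT-treated mouse 2 the difference from orchiectomized mice was -0.77 and did pass.

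*Tfpi*, on chromosome 2 (chr2:84432855-84476775, minus strand), encodes the inhibitor of tissue factor. Its mean level was 18.8 ± 2.68 CPM in control, 23.3 ± 8.33 CPM in orchiectomized and 15.3 ± 4.09 CPM in DHT-treated mice (SD, n = 5). The highest value, 37.2 CPM, was in the orchiectomized library that carried lung transcripts, and the other 4 orchiectomized mice were between 15.2 and 22.8 CPM. The log2 fold change of DHT-treated against orchiectomized mice was -0.61 (SE 0.23, adjusted *P* = 0.130) with that library and -0.37 (SE 0.19, adjusted *P* = 0.303) without it, neither of which passed. It passed the threshold when orchiectomized mouse 1 (-0.70) or DHT-treated mouse 2 (-0.77) was left out. Against control mice it was -0.30 (SE 0.23, adjusted *P* = 0.619).

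*Tfpi2*, on chromosome 6 (chr6:3962595-3988919, minus strand), encodes a related inhibitor of serine proteases. It had 3 to 23 counts per control library, 8 to 21 per orchiectomized library and 4 to 12 per DHT-treated library. Its log2 fold change with DHT was -0.87 against orchiectomized mice (SE 0.42, adjusted *P* = 0.248), with a 95% confidence interval from -1.75 to 0.02, and it did not pass.

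Of the plasminogen activators, *Plat* (tissue type, chr8:22757727-22782844, plus strand) was at 116, 148, 97.6, 144 and 113 CPM in control mice, at 143, 94.7, 143, 135 and 124 CPM in orchiectomized mice and at 143, 101, 84.0, 84.9 and 58.9 CPM in DHT-treated mice. The groups overlapped, with DHT-treated mouse 1 at the level of the highest orchiectomized mice. The log2 fold change with DHT was -0.43 (SE 0.20, adjusted *P* = 0.223) against orchiectomized and -0.39 (SE 0.20, adjusted *P* = 0.463) against control mice, and neither passed. Both passed when DHT-treated mouse 1 was left out, at -0.64 and -0.59.

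*Plau* (urokinase type, chr14:20836660-20843385, plus strand) was at 19.3, 52.4, 35.2, 38.3 and 34.3 CPM in control mice, at 28.5, 22.1, 29.1, 30.9 and 33.7 CPM in orchiectomized mice and at 20.4, 27.9, 28.5, 16.5 and 16 CPM in DHT-treated mice. Control mice 2 to 5 were above all DHT-treated mice and control mouse 1 was within their range. *Plau* fell by 0.71 on the log2 scale in DHT-treated against control mice (SE 0.23, adjusted *P* = 0.258 by edgeR). The call was lost in 8 of the 15 fits that left out 1 library (control mice 2, 3, 4 and 5, orchiectomized mouse 3 and DHT-treated mice 1, 4 and 5), over which the log2 fold change ran from -0.87 to -0.54. It was also lost with only the groups compared in the fit (-0.71, with a wider error) and with limma's voom (-0.55). Against orchiectomized mice the log2 fold change was -0.40 (SE 0.23, adjusted *P* = 0.336) and did not pass.

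*Serpine2* (protease nexin 1, chr1:79794197-79861180, minus strand) inhibits thrombin and the plasminogen activators at the cell surface. Its mean level was 848 ± 186 CPM in control, 927 ± 256 CPM in orchiectomized and 842 ± 134 CPM in DHT-treated mice (SD, n = 5). It did not pass in any comparison, and the 95% confidence interval of its log2 fold change between DHT-treated and control mice ran from -0.44 to 0.42.

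*Vwf* (chr6:125546774-125686679, plus strand) encodes von Willebrand factor, the endothelial protein that tethers platelets to exposed collagen. It was at 119, 211, 221, 302 and 237 CPM in control mice, at 225, 273, 235, 231 and 183 CPM in orchiectomized mice and at 152, 162, 84.2, 111 and 139 CPM in DHT-treated mice. All DHT-treated mice were below all orchiectomized mice, whereas control mouse 1 was lower than 3 of the DHT-treated mice. *Vwf* fell by 0.82 on the log2 scale with DHT against orchiectomized mice (SE 0.22, adjusted *P* = 0.0437 by edgeR). Without the library that carried lung transcripts it fell by 0.74 and was still called, but its adjusted *P* = 0.0966 by edgeR no longer passed 0.05. Against control mice it fell by 0.75 (SE 0.22, adjusted *P* = 0.206 by edgeR), a call lost without control mouse 4 (-0.60) and with limma's voom (-0.60). Orchiectomized and control mice differed by 0.07 (SE 0.22, adjusted *P* = 0.920), and by -0.0084 without the library that carried lung transcripts.

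**Figure D2:**
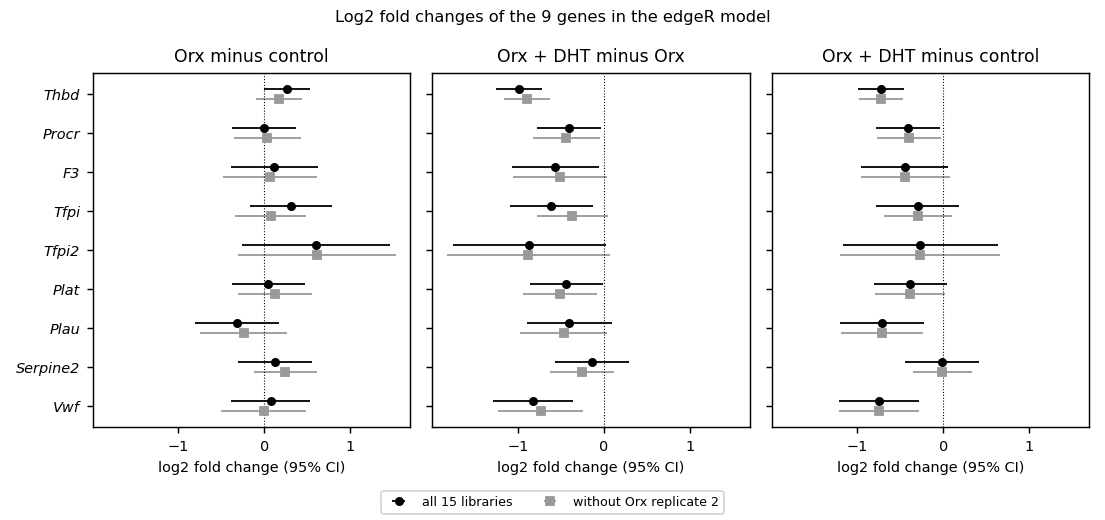
Log2 fold changes of the 9 genes (points) with 95% confidence intervals (lines) in the 3 comparisons, from the edgeR model of all 15 libraries (black circles) and of the 14 libraries left without the one that carried lung transcripts (gray squares). In both comparisons with DHT-treated mice all 9 black circles are below 0, with *Thbd* at -0.99 against orchiectomized and -0.73 against control mice.

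Across the 9 genes, the DHT-treated group had the lowest mean in every case. *Thbd* is set aside from the counts that follow, because it was chosen by its fall against orchiectomized mice. Of the other 8 genes 1, *Vwf*, was called lower against orchiectomized mice, where 7.27% of all tested genes were, and it also had an adjusted *P* value under 0.05 by edgeR, as had 3.80% of all genes in that direction. At an unadjusted *P* value under 0.05 there were 5 of the 8 (*Procr*, *F3*, *Tfpi*, *Plat* and *Vwf*), all lower, where 13.9% of all genes were. Without the library that carried lung transcripts *F3* and *Tfpi* no longer passed 0.05. *Vwf* was still the 1 called of these 8 without the library that carried lung transcripts, where 5.26% of all genes were called lower. All of these 8 log2 fold changes were below 0, as were those of 53.3% of all genes. The median over the 9, which includes *Thbd* and so is in part set by its choice, was -0.56 against -0.02 over all genes. Without the library that carried lung transcripts the median of the 9 was -0.51. Against control mice 2 of these 8 were called, both lower (*Plau* and *Vwf*), where 2.01% of all genes were called lower. At an adjusted *P* value under 0.05 by edgeR 0 of these 8 were left (0.149% of all genes), with 3 at an unadjusted *P* value under 0.05 (*Procr*, *Plau* and *Vwf*), all lower, where 6.52% of all genes were. Here too all 8 were below 0 (50.5% of all genes). The median over the 9, again with *Thbd*, was -0.41 against -0.0029 over all genes. Of these 8 genes, *Vwf* alone had groups that did not overlap against orchiectomized mice (lower, as for 4.34% of all genes). Against control mice no gene of the 8 did, where 1.79% of all genes were lower without overlap.

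Orchiectomy alone called 0 of the 8 genes other than *Thbd* by edgeR, with 3.22% of all genes called in either direction, and 0 had an unadjusted *P* value under 0.05, where 1692 of all 14121 tested genes had one. DESeq2 and limma's voom also called 0. Of the log2 fold changes of these 8 genes 2 were below 0, as were those of 43.2% of all genes. The median over the 9, which includes *Thbd*, was 0.12, against 0.04 over all genes. Without the library that carried lung transcripts the median of the 9 was 0.07, and the 2 genes below 0 were *Plau* and *Vwf* in place of *Plau* and *Procr*. The 3 comparisons share mice, since each group enters 2 of them, so these counts do not add up to separate evidence.

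Several markers of other aortic cells moved with the members. The level of a list is the mean log2 CPM of its tested markers. For 15 endothelial markers it was 5.40 to 6.08 in control, 5.37 to 6.45 in orchiectomized and 5.25 to 5.80 in DHT-treated mice, overlapping in all groups, with the maximum in the orchiectomized library that carried lung transcripts. Of the 15 markers, 3 fell with DHT against orchiectomized mice (*Pecam1* by 0.53, *Tek* by 0.89 and *Ecscr* by 0.81 on the log2 scale, 2 without the library that carried lung transcripts) and 2 against control mice (*Pecam1* by 0.47 and *Tek* by 0.76). At an unadjusted *P* value under 0.05 there were 6 of 15 against orchiectomized mice, with *Tie1* (-0.44), *Sox17* (-0.59) and *Esam* (-0.31) as the others, and 2 of 15 against control mice. Of all 15 log2 fold changes 12 were below 0 against orchiectomized mice and 10 against control mice, with medians of -0.31 and -0.09. Without the library that carried lung transcripts the median against orchiectomized mice was -0.14. The genes that fell encode an adhesion molecule, the angiopoietin receptor and a surface regulator of endothelial cells.

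Mesothelial markers, which label the serosal cells that can adhere to a dissected aorta, separated the DHT-treated mice completely. The level of 10 tested markers was 2.19 to 3.49 in control, 2.60 to 4.66 in orchiectomized and 0.78 to 1.74 in DHT-treated mice, and without the library that carried lung transcripts, which was the highest, the orchiectomized mice reached 3.35. All 10 fell with DHT against orchiectomized mice, also without that library, where their median log2 fold change went from -2.96 to -2.27. Against control mice 8 of 10 fell, and all 10 in the model without that library, and *Upk3b*, which encodes a mesothelial membrane protein, fell by 2.83 against orchiectomized mice and fell by 2.53 against control mice on the log2 scale. *Krt7* and *Krt19*, which lung epithelium also makes, were the 2 that did not pass against control mice in the fit of all libraries. Mesothelium is known to make thrombomodulin. Of 8 fibroblast markers, 3 fell against orchiectomized and 2 against control mice, and their level was 7.70 to 8.5 with DHT, against 8.40 to 9.08 and 8.40 to 8.96. Of 8 macrophage markers, 3 fell against orchiectomized mice (1 without the library that carried lung transcripts). Against control mice 0 of 8 passed by edgeR, with 3 at an unadjusted *P* value under 0.05, and the levels were 4.72 to 5.82, 5.71 to 6.37 and 4.90 to 6.49 in DHT-treated, orchiectomized and control mice. The level of 9 smooth muscle markers was 10.5 to 10.8 in DHT-treated, 9.94 to 10.5 in orchiectomized and 9.97 to 10.5 in control mice, and by edgeR 0 of 9 passed in either comparison with DHT-treated mice. At an unadjusted *P* value under 0.05 there were 6 against orchiectomized and 4 against control mice, and in the model without the library that carried lung transcripts 1 and 3 of the 9 passed, all higher. The 7 tested markers of T and B cells all fell with DHT against orchiectomized mice, and 0 passed by edgeR against control mice, also at an unadjusted *P* value under 0.05. Their level was -0.02 to 0.80 in control, 0.45 to 3.76 in orchiectomized and -0.56 to 0.66 in DHT-treated mice, with the maximum in the library that carried lung transcripts. The 3 tested neutrophil markers fell against orchiectomized mice (1 passed without that library), but 2 of them were higher with DHT than in control mice, and their level was -1.38 to -0.33, 0.88 to 3.06 and -0.19 to 1.28 in control, orchiectomized and DHT-treated mice. Of 6 markers of lymphatic endothelium 1 fell against orchiectomized mice, and by edgeR 0 passed against control mice, with 2 at an unadjusted *P* value under 0.05. Circadian clock genes, which follow the hour at which tissue is taken, also differed between groups. Of 14 clock genes 6 were higher and 3 lower in orchiectomized than in control mice, 5 were higher and 1 lower in DHT-treated than in control mice, and 1 was lower in DHT-treated than in orchiectomized mice. The part of these cells and of the clock in the values of *Thbd* and the other members was not tested.

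**Figure D3:**
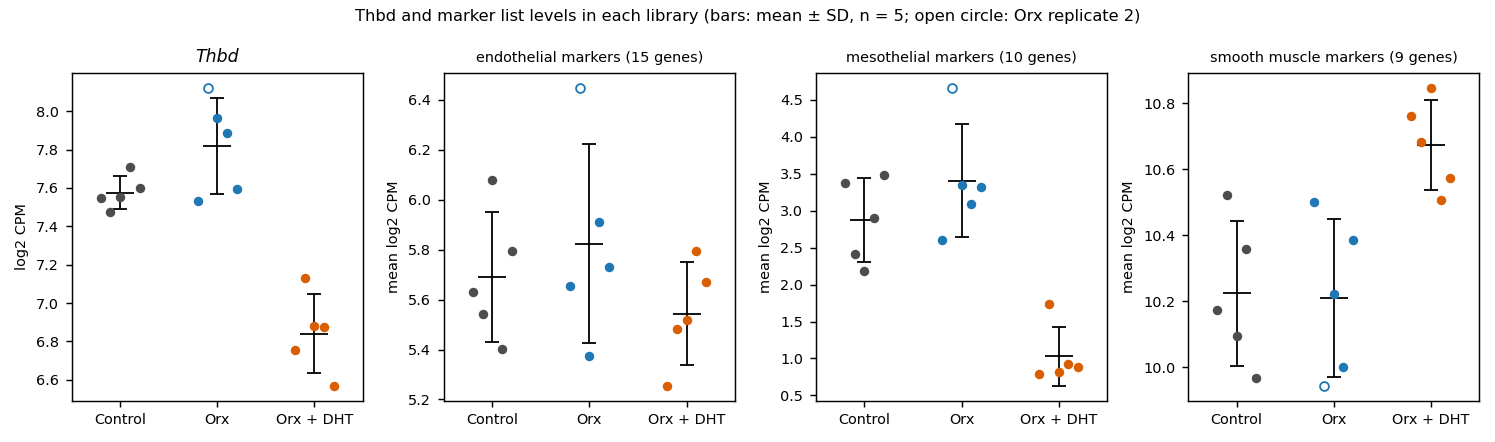
*Thbd* (log2 CPM) and the levels of the endothelial, mesothelial and smooth muscle marker lists (mean log2 CPM) in each library, with means (horizontal bars) and SD (whiskers, n = 5); the vertical axes differ and do not start at 0, and the open circle is the orchiectomized library that carried lung transcripts. The mesothelial level is 0.78 to 1.74 in DHT-treated mice and at least 2.19 elsewhere, whereas the endothelial levels of the 3 groups overlap.

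Set against the endothelial list of the same library, *Thbd* was higher than the list by 1.92, 1.93, 1.47, 2.31 and 1.81 on the log2 scale in control mice, by 1.88, 1.67, 2.59, 1.98 and 1.86 in orchiectomized mice and by 1.5, 1.65, 1.36, 1.08 and 0.90 in DHT-treated mice. The DHT-treated mice were again below all orchiectomized mice, by a mean of 0.70, and 1 control mouse was within their range. Against control mice the difference in means was -0.59. Relative to the same list, *Vwf* differed by -0.57 from orchiectomized mice (two-sided exact permutation test, *P* = 0.0873, where 5 against 5 mice cannot go below 0.00794) and by -0.58 from control mice (exact *P* = 0.127), neither beyond the spread between mice.

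A wider list of 52 genes of coagulation, anticoagulation, thrombin sensing, fibrinolysis and platelet control gave the setting of the 9 members, none of which it includes. Only 26 passed the filter on low counts, and those left out included factors made in the liver, such as *F2* (prothrombin), with 0 to 5 counts per library. Against orchiectomized mice 3 of 26 were called with DHT, all lower, where 7.27% of all genes were, and the median log2 fold change was -0.28 (-0.15 without the library that carried lung transcripts). None of the 26 had an adjusted *P* value under 0.05 by edgeR. At an unadjusted *P* value under 0.05 there were 9, all lower, where 13.9% of all genes were. DESeq2 called 3 and limma's voom 2. Against control mice 2 of 26 were called, both lower, where 2.01% of all genes were, with a median of -0.11. At an unadjusted *P* value under 0.05 there were 9, most but not all of them lower, where 6.52% of all genes were lower. By edgeR 1 had an adjusted *P* value under 0.05, and DESeq2 called 2 and limma's voom 3. Orchiectomy alone called 0 of 26 by edgeR, DESeq2 and limma's voom, with 2 at an unadjusted *P* value under 0.05 (*Pros1* and *Nos3*).

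*Pros1*, which encodes protein S, the cofactor of activated protein C, was at 101 to 120 CPM in orchiectomized mice and 62.3 to 99.4 CPM in DHT-treated mice without overlap. It fell by 0.40 on the log2 scale (SE 0.12, called), and against control mice its log2 fold change was -0.11 (SE 0.12). *F5* encodes factor V, a substrate of activated protein C, and fell by 1.73 on 3 to 56 reads per library. The highest of its values, 4.96 CPM, was in the orchiectomized library that carried lung transcripts, and without that library the call was lost (-1.12).

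*Mmrn2* (multimerin 2, an endothelial matrix protein) was at 48.5 to 59.0 CPM in orchiectomized mice and at 30.4 to 45.4 CPM in DHT-treated mice without overlap. It fell by 0.49 against orchiectomized mice and by 0.58 against control mice on the log2 scale. *Nos3* (endothelial nitric oxide synthase, whose product restrains platelets) was at 45.5 to 63.6 CPM in control, 41.6 to 52.0 CPM in orchiectomized and 29.1 to 44.5 CPM in DHT-treated mice. It fell by 0.68 on the log2 scale against control mice (SE 0.13, adjusted *P* = 0.0464 by edgeR), with no overlap, and did not pass against orchiectomized mice (-0.37).

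**Figure D4:**
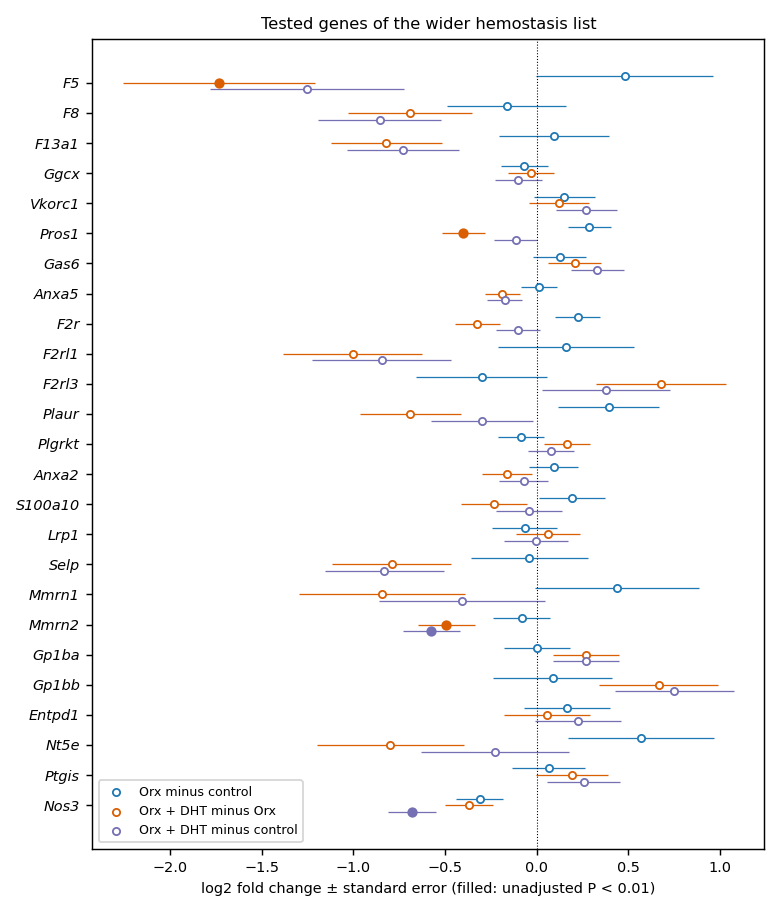
Log2 fold changes with standard errors (lines) of tested genes of the wider hemostasis list in the 3 comparisons, orchiectomized minus control (blue), DHT-treated minus orchiectomized (orange) and DHT-treated minus control (purple); filled circles have an unadjusted *P* value under 0.01. Filled circles are seen for *F5*, *Pros1* and *Mmrn2* in orange and for *Mmrn2* and *Nos3* in purple, all left of 0.

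*Klf2* and *Klf4* encode flow-responsive transcription factors that are known to raise thrombomodulin in endothelium. *Klf4* was at 73.4, 85.6, 77.4, 86.0 and 87.1 CPM in control mice, at 66.6, 134, 89.0, 92.7 and 61.6 CPM in orchiectomized mice and at 57.2, 65.6, 63.3, 63.1 and 47.9 CPM in DHT-treated mice. It fell by 0.58 on the log2 scale with DHT against orchiectomized mice (SE 0.17, adjusted *P* = 0.0668 by edgeR). Its maximum was in the library that carried lung transcripts, and without it the call was lost (-0.37). Against control mice *Klf4* was lower without overlap but did not pass (-0.46, adjusted *P* = 0.336 by edgeR), while in the model without that library it passed with the same log2 fold change (-0.46, adjusted *P* = 0.136 by edgeR). *Klf2* passed in no comparison. Its log2 fold change was 0.56 for orchiectomized against control mice (adjusted *P* = 0.354 by edgeR), -0.33 for DHT-treated against orchiectomized mice (adjusted *P* = 0.399) and 0.22 for DHT-treated against control mice (adjusted *P* = 0.707). Its maximum, 182 CPM, was in the library that carried lung transcripts, and without that library the first 2 values were 0.30 and -0.08.

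The 5 genes whose log2 CPM followed that of *Thbd* most closely over the 15 libraries were *Stxbp6* (Pearson's r = 0.974), *Dpp4* (0.959), *Gpc3* (0.955), *Pcdh18* (0.952) and *Anpep* (0.951). Without the library that carried lung transcripts the values were between 0.947 and 0.970. Over deviations from the group means, which leave out the difference between groups, they were 0.886, 0.771, 0.752, 0.902 and 0.933. *Dpp4* and *Anpep* encode membrane peptidases and *Gpc3* a glypican. *Vwf* was ranked 532 by this measure (r = 0.758, and 0.307 on deviations from the group means). The libraries share their groups and marker levels, and these values are a description: *Upk3b*, the mesothelial marker, had r = 0.913 with *Thbd*, and 0.432 on deviations from the group means. For *Klf4* the values were 0.866 and 0.864, and for *Klf2* 0.243 and 0.233. Without the library that carried lung transcripts r was 0.860 for *Klf4* and -0.09 for *Klf2*. What lies behind these values was not tested.

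RefSeq promoter windows of GRCm38.p6 were at hand for 5 of the members (*Procr*, *F3*, *Tfpi*, *Tfpi2* and *Serpine2*, 8 windows in all), and the 250 bases before each start were searched on both strands. The half-site of the androgen receptor, AGAACA, which is read as TGTTCT on the other strand, was found in windows of *Tfpi2* only, and 16.1% of all 32851 promoters of this length hold it. The full palindrome of the receptor, made of a half-site on each strand, was in none of the 8 windows, against 0.00913% of all promoters. The E-box CACGTG was also in none (6.02% of all promoters), and CACCC, a sequence that Krüppel-like factors bind, was in 6 of 8 (52% of all promoters). The window before 1 of the *Tfpi2* starts (chr6:3988859-3989108, minus strand, 5′ to 3′, half-site in capitals, 146 bases before the start) is shown because *Tfpi2* is the 1 member with a match. *Tfpi2* did not pass in any comparison.
*Tfpi2*: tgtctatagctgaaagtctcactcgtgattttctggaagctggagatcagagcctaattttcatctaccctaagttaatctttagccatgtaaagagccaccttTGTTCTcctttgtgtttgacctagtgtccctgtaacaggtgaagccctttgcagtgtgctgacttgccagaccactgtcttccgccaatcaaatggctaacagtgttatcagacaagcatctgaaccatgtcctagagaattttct
A match of 6 bases is a description and says nothing of binding.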

How the data were processed

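Whole aortas of 15 mice, 5 per group, were sequenced as poly(A)-enriched RNA. For each library the authors deposited counts of reads by gene symbol, which are whole and not normalized. STAR, Cufflinks, DESeq2 and the build mm10 are named in the submitters' processing notes, without role, and the counting program and annotation are not given in the sources used here. Groups and replicate numbers came from the labels. Each library is 1 aorta, but the labels do not say how mice were assigned to cages or days.

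Entries for reads assigned to no gene (6.26% to 14.4% of counted reads) or to several genes (1.34% to 1.97%) were left out. Gene reads per library lay between 8268957 and 13816864, so that 10 counts equal 0.687 to 1.28 CPM. The lowest gene described, *Tfpi2*, had 3 counts in 1 library and is measured with little precision.

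The analysis used edgeR 4.0.16 in R 4.3.3 (filterByExpr with minimum count 10 and minimum total 15, TMM, and a quasi-likelihood fit of the 3 groups to all 15 libraries without covariates). This left 14121 genes, over all of which *P* values were adjusted by Benjamini-Hochberg. A gene was called when its unadjusted *P* value was under 0.01. The biological coefficient of variation was 0.297. On simulated data for the comparison of DHT-treated with orchiectomized mice (14045 genes), the fit called 75% of 100 genes with a log2 fold change of size 1, 92.9% of 99 genes with one of size 2 and 0.845% of 13846 unchanged genes. A prior count of 3 was added for log2 CPM. Gene positions and exon lengths came from GENCODE vM21 (GRCm38).

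The 9 genes, the wider list and the marker lists were chosen with earlier results of these data known. The text names the 9 genes, genes of the wider list called in any comparison, *Klf2* and *Klf4*, the 5 genes most correlated with *Thbd*, and markers of a list that moved with a member. The rule as fixed names 1 further gene, which is not reported here. *F2* was named after its counts were seen, as an example. Alternatives were DESeq2 1.42.0, DESeq2's size factors, all genes with a count, at least 10 counts in every library, only the groups compared, the replicate number as a block, a robust fit, voom of limma 3.58.1 with quality weights, an adjusted threshold, another prior count (0.5), the median of the endothelial list, and each library left out. Same-numbered libraries did not deviate together, and no pair of libraries of a group agreed within counting noise.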

Additional observations from a re-analysis of the deposited data

How the results depend on the processing

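No log2 fold change of the 9 genes changed direction past the threshold under any alternative. Of 617 alternative values, 599 stayed on the same side of the threshold, 13 (for *Plau* and *Vwf* against control mice) no longer passed and 5 (for *F3*, *Tfpi* and *Plat*) newly passed. The 617 include those of *Thbd* and of genes far from the threshold in every comparison, such as *Serpine2*. The share that stayed therefore says little of how firm a call is. Without 1 library at a time the *Thbd* values ran from -1.06 to -0.89 against orchiectomized mice, from -0.81 to -0.66 against control mice, and from 0.17 to 0.31 for orchiectomy alone.

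Counts of called genes moved more. Counts over the 9 members include *Thbd*, which was picked on these mice and from which nothing is read. Against orchiectomized mice, 2 to 4 of the 9 members were called without 1 library (4 without DHT-treated mouse 2), and of the wider list 1 to 8 (8 without DHT-treated mouse 2, 5 without control mouse 1 or orchiectomized mouse 1, 1 without DHT-treated mouse 3 or 5) and 0 at the adjusted threshold by edgeR, with 9 at an unadjusted *P* value under 0.05. Against control mice, the count over the 9 members was 1 with limma's voom, 1 at the adjusted threshold and 1 to 3 without 1 library (1 without control mouse 4), so that with *Thbd* set aside 0 were left where it was 1. Of the wider list 2 to 5 were called without 1 library (5 without control mouse 1), and 1 at the adjusted threshold. For orchiectomy alone, 3 genes of the wider list were called when all genes with at least 1 count were kept. *Vwf* relative to the endothelial list passed 0.05 against orchiectomized mice without DHT-treated mouse 1 (-0.71, exact *P* = 0.0397). The causes of these moves were not tested.

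The replicate numbers do not pair the libraries, since the correlations of same-numbered libraries ran from -0.47 to 0.46 and only 5 of 15 were over 0.1. With the number as a replicate block, *Thbd* differed by -0.98 from orchiectomized and by -0.74 from control mice, 2 members were called in each of these comparisons, and *Plau* against control mice no longer passed (-0.69).

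Depth limits *Tfpi2* and *F5*, whose libraries held as few as 3 reads, and the 26 untested genes of the wider list. All mice received Aldo-salt, and 1 library carried lung transcripts. Leaving it out did not level the lung markers. Of 5 tested, 2 still passed as higher in orchiectomized than in control mice, and 3 as lower with DHT than in orchiectomized mice. Orchiectomized library 4 had the highest share of lung marker reads of the other 14 libraries, at 0.00905%.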
